A study of Mus musculus with 2 samples.

Results

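Primitive endoderm is the cell layer that forms on the inner cell mass before implantation and gives rise to the extraembryonic endoderm of the yolk sac. Fgf4 from epiblast precursors acts through Fgf receptors, Mek and Erk in favour of Gata6, while Nanog holds cells in the epiblast state. Gata4, Sox17, Sox7 and Pdgfra are also expressed in this lineage. The maturing layer takes up nutrients through cubilin and amnionless with the adaptor Dab2. Cultures of embryonic stem cells (ESCs) in serum are known to hold a small share of cells that express such genes.

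The expression of 9 primitive endoderm genes was examined in mouse ESCs by RNA-seq of polyadenylated RNA. They were chosen by name, with earlier results of these data known. The 9 genes comprise 5 transcription factors (Gata6, Gata4, Sox17, Sox7 and Foxa2) and 4 genes for a receptor or its partner (Pdgfra, Dab2, Cubn and Amn). All 9 were found among the 24532 genes of the deposited table. One library came from E14, an established mouse ESC line with wild-type Sox2 (labelled WT). The other came from E14-Sox2 TA/WT cells (labelled Sox2 T258A mutant and called the mutant here), a clone of E14 edited with CRISPR/Cas9 so that 1 Sox2 allele encodes T258A and the other stays wild type. The change replaces a threonine that can carry the sugar O-GlcNAc. E14 was cultured with serum and leukemia inhibitory factor. The clone was grown out of a single cell in 2i (the Mek inhibitor PD0325901 and the Gsk3 inhibitor CHIR99021), was kept in serum, leukemia inhibitory factor and 2i, and was used within a limited number of passages after 2i had been withdrawn. The genotype, the choice of clone and the history of Mek inhibition cannot be told apart here. The libraries held 60263536 reads for E14 and 44609228 for the mutant. With 1 library per genotype, no difference has a replicate check, no p-value is given, and every 95% interval covers the counting of reads alone.

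The RNA was that of ESCs in both libraries. All 8 ESC markers were detected, and their summed TPM (the deposited level, scaled for transcript length and for library size) was 12109 for E14 and 9073 for the mutant. The largest part of this sum in both libraries was Dppa5a (TPM 6877 against 4429). The 9 primitive endoderm genes were low beside the 8 markers, with a summed TPM of 56.3 against 23.9. Each had reads in both libraries, from 43 to 1607 for E14 and from 17 to 926 for the mutant. Of 8 genes for uptake and secreted proteins of visceral endoderm, only Afp, a marker of the mature layer, had no read in either library. In bulk RNA, fewer cells of the primitive endoderm and less RNA per cell cannot be told apart.

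Upstream sequences are shown for the 3 genes of the cubilin uptake complex, because their products work together and their ratios differed. Cubn encodes cubilin, the ligand-binding part of the cubam receptor. Amn encodes amnionless, which carries cubilin to the cell surface. Dab2 encodes an endocytic adaptor that links such receptors to clathrin. Each sequence holds the 250 bases before a RefSeq start site (GRCm38.p6), 5′ to 3′ on the strand of the gene, and capitals mark a short GATA, Sox or forkhead motif. The Amn sequence lies at chr12:111270846-111271095 on the plus strand, that of Cubn at chr2:13491877-13492126 on the minus strand, and that of Dab2, at its upstream start site, at chr15:6299539-6299788 on the plus strand.
Amn: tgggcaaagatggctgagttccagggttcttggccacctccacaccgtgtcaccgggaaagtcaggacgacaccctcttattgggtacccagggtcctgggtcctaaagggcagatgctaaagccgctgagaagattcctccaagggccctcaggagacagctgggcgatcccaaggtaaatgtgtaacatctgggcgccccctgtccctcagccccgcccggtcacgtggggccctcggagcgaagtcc
Cubn: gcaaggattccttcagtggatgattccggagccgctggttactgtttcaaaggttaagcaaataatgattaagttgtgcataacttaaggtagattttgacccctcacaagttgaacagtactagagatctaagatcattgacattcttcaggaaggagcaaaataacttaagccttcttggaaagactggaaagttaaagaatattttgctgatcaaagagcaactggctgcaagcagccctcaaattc
Dab2: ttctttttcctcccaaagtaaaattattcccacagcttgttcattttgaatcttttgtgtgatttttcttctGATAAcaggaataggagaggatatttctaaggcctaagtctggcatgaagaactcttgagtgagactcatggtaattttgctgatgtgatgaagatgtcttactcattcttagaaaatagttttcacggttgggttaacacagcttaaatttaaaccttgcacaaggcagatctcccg
The G and C content was 61.2% for Amn, 39.6% for Cubn and 36.8% for Dab2, but 60% for the second Dab2 entry, which is not shown. Which start site of Dab2 these cells use was not tested. The median over 32851 such sequences was 52.4%. Of all these sequences, 22.6% held the GATA motif (GATAA on either strand), 27.7% the Sox motif (ACAAT) and 12.03% the forkhead motif (TGTTTA). The Dab2 sequence held 1 GATA motif, and the Amn and Cubn sequences held none of the 3 motifs. Of the other 5 entries for these genes, the single Pdgfra entry held none, 1 of the 3 Foxa2 entries held a GATA motif, and the second Dab2 entry held a forkhead motif. The sequence table had entries for 5 of the 9 genes, and Gata4, Gata6, Sox17 and Sox7 were not among them.

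The 5 transcription factors were all lower in the mutant. Their summed TPM was 31.5 for E14 and 8.48 for the mutant, which is 26.9% of the E14 level. Gata6 (Entrez 14465, chromosome 18, 11052064 to 11085635, GRCm38), the zinc finger factor at the head of the lineage, had 952 reads and a TPM of 9.46 in E14, against 174 reads and a TPM of 2.58 in the mutant. Its level was 3.67-fold lower, with a counting interval of 3.12-fold to 4.34-fold. A transcript on the opposite strand, 1010001N08Rik, overlaps the start of Gata6 and had 44 and 12 reads. How strand was handled is not given in the sources used here, so reads of the shared stretch cannot be assigned.

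Gata4 (Entrez 14463, chromosome 14, 63198922 to 63271692), which acts after Gata6 and also in heart and gonad, was the highest of the 9 genes in E14. It had 1607 reads and a TPM of 14.97 in E14, against 274 reads and a TPM of 3.80 in the mutant, or 3.94-fold lower (3.47 to 4.50). The log2 ratio of Gata6 minus that of Gata4 was 0.10 (-0.20 to 0.41), so a difference between these relatives was not detectable at this depth. Gata2, a blood and trophoblast factor of the same family, was also lower, with a TPM of 3.19 against 0.900. Gata1, a factor of red blood cells, had a TPM of 2.66 against 1.41. Gata3, a trophoblast factor, was in the other direction with 33 and 50 reads, and Gata5, of endoderm and heart, had 0 and 2 reads.

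Sox17 and Sox7 are closely related high-mobility-group factors that also act in blood vessels. Sox17 (Entrez 20671, chromosome 1, 4490931 to 4497354) had 344 reads and a TPM of 3.32 in E14, against 67 reads and a TPM of 0.778 in the mutant. It was 4.27-fold lower (3.28 to 5.64). The size of the Sox17 difference depended on the unit, with a log2 ratio of -2.09 for TPM, -1.93 for reads scaled to the library total and -2.24 for FPKM. The transcript length implied by reads and FPKM was 1.24 times as long for Sox17 in the mutant as in E14, while this figure lay between 0.992 and 1.08 for the other 8 genes. The deposited table lists 5 RefSeq transcripts for Sox17, whose separate levels were not analysed here. A noncoding gene on the opposite strand, Gm37587, overlaps Sox17 and was not analysed here.

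Sox7 (Entrez 20680, chromosome 14, 63943673 to 63950732), a gene of 2 exons, had 322 reads and a TPM of 3.13 in E14, against 68 reads and a TPM of 0.973 in the mutant. The level was 3.21-fold lower (2.47 to 4.24). The TPM intervals of Sox17 and Sox7 overlapped in both libraries, and the log2 ratio of Sox17 minus that of Sox7 was -0.41 (-0.97 to 0.15). Sox18, the remaining relative of this subfamily and an endothelial factor, was in the other direction at a low level, with 67 and 73 reads and a TPM of 1.31 against 2.13.

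Foxa2 (Entrez 15376, chromosome 2, 148042877 to 148046969), a forkhead factor of visceral and definitive endoderm, was the lowest of the 9 genes. It had 43 reads and a TPM of 0.649 in E14, against 17 reads and a TPM of 0.355 in the mutant. The log2 ratio was -0.87 with an interval from -1.78 to -0.03, which spans both sides of a 2-fold difference. Of its relatives, Foxa1 had 128 and 21 reads (TPM 1.27 against 0.297), and Foxa3 had 134 and 77 (TPM 2.08 against 1.78). The interval of the log2 ratio of Foxa3 (-0.65 to 0.19) included 0.

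**Figure D1:**
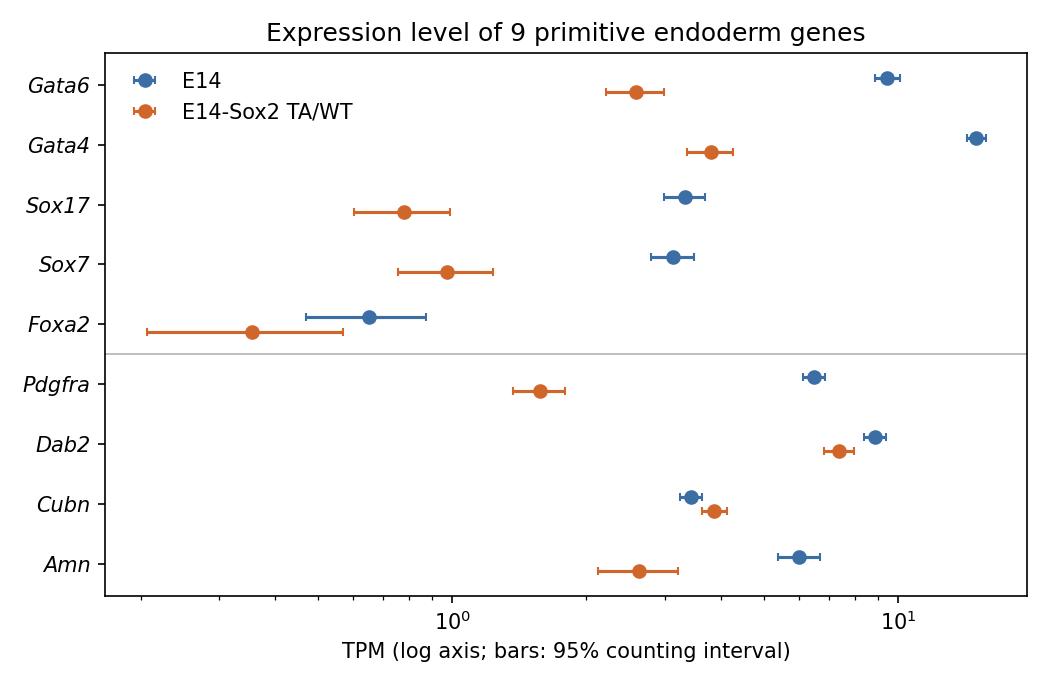
TPM of each gene (log axis) in E14 (blue) and E14-Sox2 TA/WT cells (orange), 1 library each, with bars for the 95% interval from counting reads. Transcription factors are above the line and receptor genes below it. The intervals of Gata6, Gata4, Sox17, Sox7, Pdgfra and Amn lie well apart, whereas the points of Dab2 (8.87 and 7.36) and Cubn (3.43 and 3.87) lie close together.

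The 4 receptor genes differed among themselves. Their summed TPM was 24.8 for E14 and 15.4 for the mutant, or 62.2% of the E14 level. Pdgfra (Entrez 18595, chromosome 5, 75152292 to 75198215), the Pdgf receptor whose reporter is widely used to mark primitive endoderm, had 1280 reads and a TPM of 6.48 in E14, against 218 reads and a TPM of 1.57 in the mutant. It was 4.12-fold lower (3.57 to 4.78). Of the genes that overlap Pdgfra, Mir7025 had 1 read in each library, and Gm42802 and Gm42803 were not analysed here.

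Amn (Entrez 93835, chromosome 12, 111271095 to 111276426) had 322 reads and a TPM of 6.01 in E14, against 95 reads and a TPM of 2.62 in the mutant. It was 2.29-fold lower, and its interval (1.82 to 2.91) included 2-fold. Traf3, the signalling adaptor gene that ends 3942 bases before Amn, had 1770 and 1630 reads and a log2 TPM ratio of 0.46, the other direction.

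Dab2 (Entrez 13132, chromosome 15, 6299788 to 6440712) was lower by a smaller factor. It had 1174 reads and a TPM of 8.87 in E14, against 648 reads and a TPM of 7.36 in the mutant, with a log2 ratio of -0.27 (-0.41 to -0.13). The 547 genes of chromosome 15 whose mean TPM reached 1 had a median log2((TPM + 0.1) ratio) of -0.20, so Dab2 lay near the median of its chromosome. On the other chromosomes that hold these genes the median ran from -0.00 (chromosome 5) to 0.14 (chromosome 18). Gm16311 and Gm18888 overlap Dab2 on the opposite strand and were not analysed here.

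Cubn (Entrez 65969, chromosome 2, 13276338 to 13491813), with 67 exons, had 1224 reads and a TPM of 3.43 in E14, against 926 reads and a TPM of 3.87 in the mutant. Its log2 ratio was 0.17 (0.05 to 0.30), but this direction depended on the processing, with 0.03 when reads were scaled to the library total and -0.32 after correction for GC content and length. For TPM, the log2 ratios of Cubn and Amn, whose proteins work as 1 receptor, differed by 1.37 (1.01 to 1.74). After correction for GC content and length they lay closer, at -0.32 for Cubn and -0.92 for Amn. Rsu1, 4923 bases beyond the end of Cubn, had a log2 TPM ratio of 0.08. A noncoding gene on the opposite strand, Gm13270, overlaps the end of Cubn and was not analysed here.

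For TPM, the log2 ratios of Gata6, Gata4, Sox17, Sox7 and Pdgfra lay close together, between -2.09 and -1.68. The interval of the difference included 0 for all 10 pairs of these 5 genes. After correction for GC content and length the 5 ratios were wider apart, from -2.36 for Pdgfra to -1.57 for Sox7, with Gata4 at -1.73. These 5 genes were grouped after their values were seen. Over all 9 genes, the interval excluded 0 for 22 of 36 pairs. The log2 ratio of Pdgfra minus that of Amn was -0.85 (-1.25 to -0.44), and that of Gata4 minus Amn was -0.78 (-1.17 to -0.39). For Sox7 minus Amn it was -0.49 (-1.01 to 0.03), a difference not detectable at this depth. Dab2 and Cubn also differed for TPM, by -0.44 (-0.63 to -0.26). After correction for GC content and length the ratio of Dab2 was -0.44 and that of Cubn -0.32, which lay closer together.

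**Figure D2:**
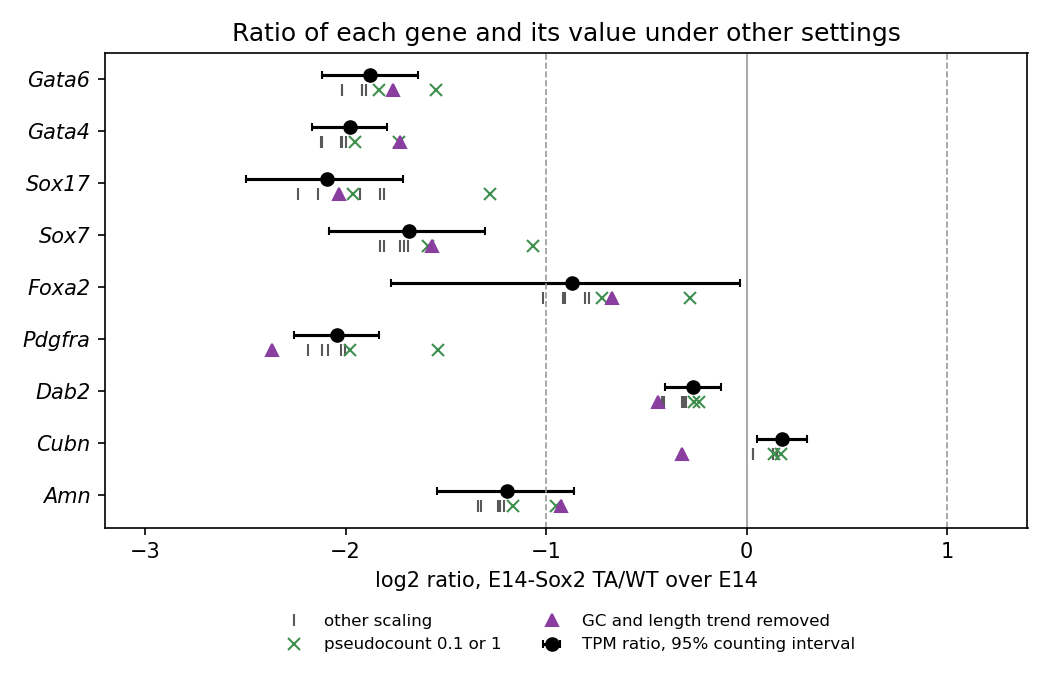
Log2 ratio (E14-Sox2 TA/WT over E14) of each gene. Black points are TPM ratios with 95% counting intervals, and the smaller marks below them show other scalings, pseudocounts and the ratio with a GC and length trend removed. Dashed lines mark 2-fold. All marks of Gata6, Gata4, Sox17, Sox7 and Pdgfra lie past 2-fold lower, and only Cubn has marks on both sides of 0.

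The order of the genes by level was different in the 2 libraries. In E14 the order was Gata4, Gata6, Dab2, Pdgfra, Amn, Cubn, Sox17, Sox7 and Foxa2. Neighbours whose TPM intervals overlapped were Gata6 and Dab2, Pdgfra and Amn, Cubn and Sox17, and Sox17 and Sox7. In the mutant Dab2 and Cubn were the 2 highest, followed by Gata4, Amn, Gata6, Pdgfra, Sox7, Sox17 and Foxa2, with overlap between Cubn and Gata4, Amn and Gata6, and Sox7 and Sox17. Gata4 held rank 1 in E14 and rank 3 in the mutant, and Cubn held rank 6 and rank 2.

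The counts were then set against all genes under the same rules. Because the 9 genes were chosen with earlier results of these data known, these shares describe the counts and do not test them. The filter of the study, a TPM that reached 10 in either library, admitted 1 of the 9 genes, Gata4, which was more than 2-fold lower. Of all 9094 genes admitted, 4.07% were more than 2-fold lower and 4.17% more than 2-fold higher. Gata4 was admitted through E14 alone, so that it had to be lower in the mutant, though not by 2-fold. A filter at a TPM of 1 admitted 8 of the 9 genes and left out Foxa2. Of these, 6 (Gata6, Gata4, Sox17, Sox7, Pdgfra and Amn) were more than 2-fold lower and 0 were more than 2-fold higher. The background was 9.95% lower and 6.45% higher of 13729 genes. Amn was less than 2-fold lower after correction for GC content and length (log2 ratio -0.92) and with a pseudocount of 1 (-0.95), which leaves 5 genes. Sox17 and Sox7 were admitted through E14 alone, where their TPM was above 2. Their mutant TPM was under the filter of 1, which by itself meant more than 2-fold lower. Among the 6781 genes whose higher TPM was from 1 to under 20, a band set around the 8 admitted genes after their values were seen, 17.0% were more than 2-fold lower and 9.07% more than 2-fold higher. The counting interval lay wholly below no change for 8 of 9 genes and wholly above it for 1, but it did so for 35.2% and 38.7% of the 16225 genes with 10 or more reads in all, so an interval that leaves out no change was common at this depth. Of the genes with a TPM that reached 1, 2.67% had a lower ratio than Sox17, 3.001% a lower ratio than Gata4 and 7.84% a lower ratio than Amn. For Dab2 this share was 30.3% and for Cubn 60.2%.

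**Figure D3:**
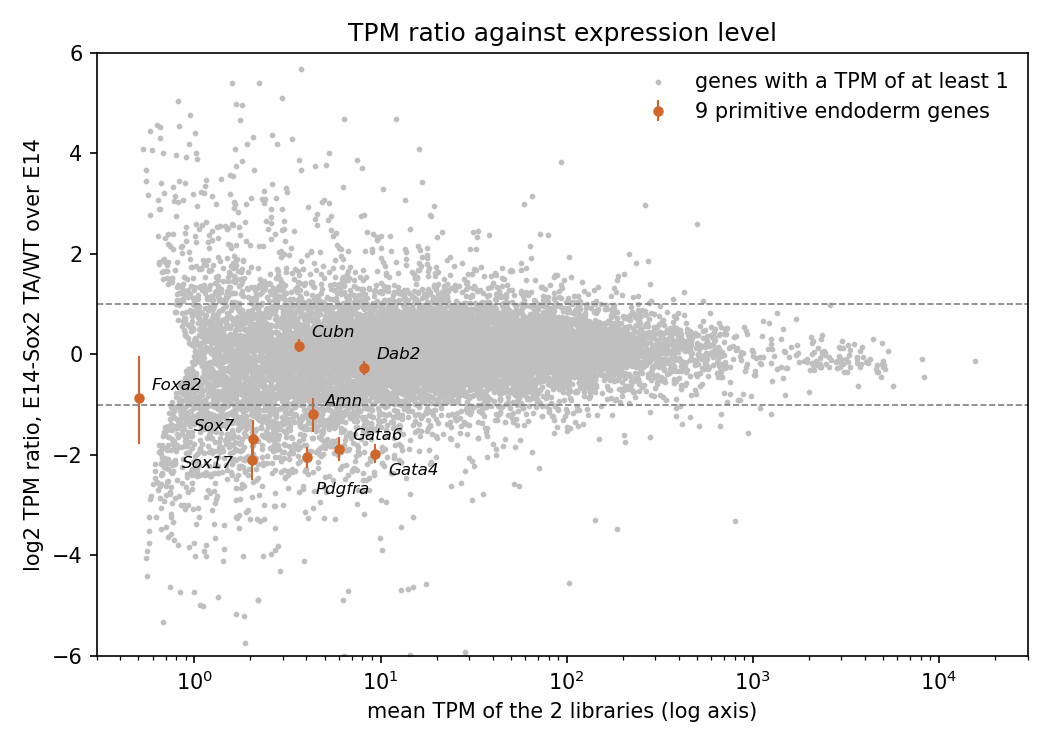
Log2 TPM ratio (E14-Sox2 TA/WT over E14) against the mean TPM of the 2 libraries (log axis). Grey points are genes whose TPM reached 1 in either library and was above 0 in both, of which 14 lie outside the plotted range. Orange points are the 9 primitive endoderm genes with 95% counting intervals, including Foxa2, whose TPM was under 1. Dashed lines mark 2-fold. Gata6, Gata4, Sox17, Sox7 and Pdgfra lie below the dense band of genes with others around and below them, and Dab2 and Cubn lie within the band.

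Further genes of the lineage were read from lists, each described over members whose mean TPM reached 1 and by the median log2((TPM + 0.1) ratio). The median of all 13269 genes past this filter was 0.04, and 46.8% of them were lower. The median of the 8 primitive endoderm genes past it was -1.71. Of the other endoderm transcription factors 5 of 9 were past the filter, 4 lower and 1 higher, with a median of -0.21. Foxq1, a forkhead factor, had 655 and 120 reads and a log2 TPM ratio of -1.87. Hnf4a, a nuclear receptor of visceral endoderm, had 576 and 139 reads and a log2 TPM ratio of -1.47. Hhex, a homeobox factor of anterior visceral endoderm, had a TPM of 9.63 against 8.50, and the interval of its log2 ratio (-0.38 to 0.02) included 0. That of Cited1, a transcriptional co-regulator with 98 and 75 reads, also included 0. Among the relatives of the 9 genes, 5 of 7 past the filter were lower, with a median of -0.21 that changed sign at a higher filter (0.31 for a mean TPM from 5). Dab1, the relative of Dab2 that acts in neurons, had a TPM of 24.8 against 21.8 but 1195 and 1155 reads, and its log2 ratio was -0.19 for TPM and 0.38 for reads scaled to the library total, where 4 of the 7 relatives were lower.

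Genes for uptake and for secreted proteins of visceral endoderm differed in both directions, with 4 of 6 lower and a median of -0.57. Rbp4, which carries retinol, had a TPM of 16.7 in E14 and 3.72 in the mutant. Lrpap1, a chaperone of receptors of the Lrp family, had a TPM of 104.5 against 51.2. Lrp2, which encodes megalin, the co-receptor of cubilin, was higher, with 4306 and 5100 reads and a TPM of 8.84 against 15.6. Fst, an inhibitor of activin, was also higher, with 147 and 308 reads and a log2 TPM ratio of 1.66. Within the cubilin uptake complex the log2 TPM ratios were thus -1.20 for Amn, -0.27 for Dab2, 0.17 for Cubn and 0.82 for Lrp2. Those of Amn, Dab2 and Cubn were -0.92, -0.44 and -0.32 after correction for GC content and length. The corrected ratio of Lrp2 was not examined, and for reads scaled to the library total its log2 ratio was 0.68.

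Basement membrane and parietal endoderm genes were lower for 10 of 12, with a median of -0.65, and 2 of them were more than 2-fold lower. Srgn, a proteoglycan core protein, had the lowest ratio (TPM 36.9 against 16.9), and Sparc, a matrix glycoprotein, had a TPM of 286.8 against 145.9. Lamc1 (TPM 97.9 against 142.9), a laminin chain, and Nid2 (TPM 143.4 against 205.8), a nidogen, were higher. These 4 genes are also expressed outside the primitive endoderm.

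Among signals and receptors, Pdgfa, a ligand of Pdgfra and a gene that the study selected partly on these libraries, had a TPM of 79.1 in E14 and 37.5 in the mutant. Pdgfrb, the other Pdgf receptor, was lower as well (TPM 6.75 against 2.85). The ligand genes Pdgfb (TPM 5.49 against 10.8) and Pdgfc (TPM 4.05 against 10.4) were higher. The median of this list of 4 genes past the filter was -0.05 and changed sign with the processing (0.11 after correction for GC content and length).

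The route from Fgf4 to Erk had a median of 0.23, with 4 of 11 genes lower and 7 higher (5 and 6 for reads scaled to the library total). Fgf4 had a TPM of 162.6 in E14 and 108.7 in the mutant. Fgfr4 (TPM 12.8 against 4.91) was lower and Fgfr2 (TPM 3.09 against 5.87), a receptor used by primitive endoderm, was higher. Of the epiblast regulators 3 of 4 were lower, with a median of -0.51. Nanog, which opposes Gata6, had a TPM of 526.9 against 251.3, and Sox2 had 372.5 against 274.2. Prdm14, a repressor of differentiation, had a TPM of 9.40 against 6.30, and Pou5f1 had 1725 against 1759, a direction that turned for reads scaled to the library total (log2 ratio 0.03 and -0.12). Gata6 and Nanog, which mark alternative fates, were both lower in the mutant library.

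**Figure D4:**
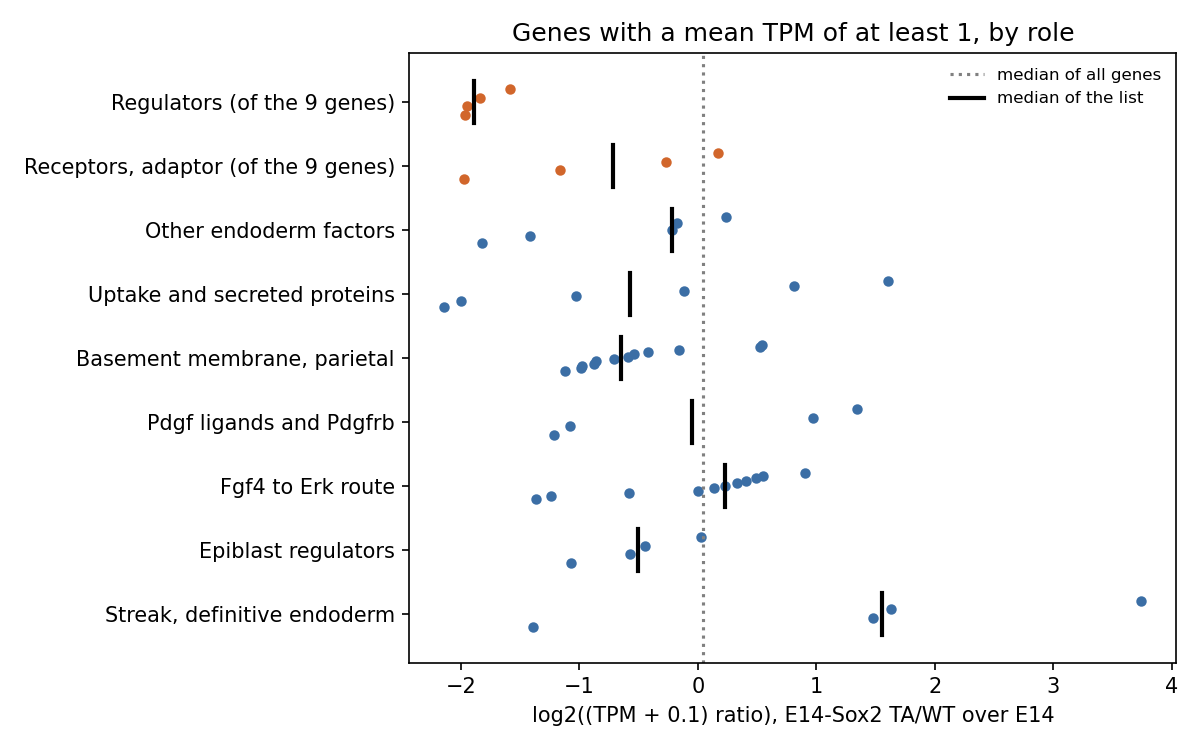
Log2((TPM + 0.1) ratio, E14-Sox2 TA/WT over E14) of single genes (points) by role, for genes whose mean TPM reached 1, with the median of each list (black bar) and of all genes (dotted line, 0.04). Orange points are the primitive endoderm genes. The 4 regulators past the filter have a median of -1.89, and the 4 streak and definitive endoderm markers past it have a median of 1.55.

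Several of the 9 genes also mark other cells. Sox17 and Foxa2 are expressed in definitive endoderm, and the 7 streak and definitive endoderm markers had a summed TPM of 7.47 in E14 and 25.6 in the mutant. T (62 and 606 reads), Mixl1 (67 and 150), Eomes (300 and 575) and Lhx1 (6 and 15) were higher, Cxcr4 (144 and 35) and Gsc (16 and 0) were lower, and Cer1 had no read in either library. Sox17 and Sox7 also mark endothelium, and the 7 endothelial markers had a summed TPM of 110.9 against 50.6. Nearly all of that sum was Pecam1 (TPM 102.7 against 44.1), which ESCs express. Tek (883 and 326 reads) and Tie1 (82 and 29) were lower as well, Kdr (19 and 75) and Sox18 were higher, Cdh5 had 17 and 12 reads, and Emcn had none. Gata4 and Gata6 also mark heart, and the 6 mesoderm and heart markers had a summed TPM of 4.92 against 2.83. Only 1 of these 6, Tbx6 (TPM 2.57 against 1.67), had a mean TPM that reached 1. Mesp1 had 22 and 10 reads, and the interval of its log2 ratio (-1.76 to 0.62) included 0. Nkx2-5 had 62 and 7 reads, Hand2 5 and 0 and Tbx5 24 and 0, while Isl1 was higher (15 and 29).

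Pdgfra also marks fibroblasts, and the 6 fibroblast markers had a summed TPM of 43.1 against 16.6, most of it from Thy1 (TPM 40.1 against 11.4). Col3a1 (15 and 151 reads) and Col1a2 (43 and 109) were in the other direction, and Dcn and Postn had no read in either library. The 5 trophoblast markers had a summed TPM of 54.3 against 31.9, and most of the E14 sum was Tfap2c, which was lower (TPM 50.9 against 16.1). Cdx2 (TPM 0.474 against 12.2) and Gata3 (TPM 0.322 against 0.733) were higher. Hand1 had a TPM of 2.59 against 2.90, with an interval of its log2 ratio (-0.20 to 0.52) that included 0, and Elf5 was without a read. The part of these other cell types in the levels of the 9 genes was not tested.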

How the data were processed

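RNA-seq was performed on 1 library of E14 and 1 of E14-Sox2 TA/WT cells. The authors deposited a gene table (mm10) with read counts (whole numbers, not normalized), FPKM (scaled for length and number of fragments) and TPM (scaled for length to a fixed library sum). The submitters' processing notes name bcl2fastq 2.20.0, Trimmomatic, HISAT2 2.1.0 and StringTie 2.1.3b without roles. Strand handling and multi-mapped reads are not described in the sources used here.

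Ratios (mutant over E14) were taken from the deposited TPM without a pseudocount. Exact Clopper-Pearson 95% intervals came from the read counts and were placed on the TPM scale. Intervals of single levels are exact Poisson, and differences between genes carry exact conditional odds-ratio intervals (scipy 1.17.1). Reads copied by PCR are not separate molecules, so these intervals describe counting error alone. The code for intervals of read count ratios was tested on simulated counts that held counting error alone. The placing on the TPM scale and the other kinds of interval were not tested in this way. Medians used log2(TPM + 0.1). edgeR 4.0.16 (TMM) and DESeq2 1.42.0 (size factors) served only for alternative scalings, and no count test was run. GC content and length came from GENCODE M21 transcripts (95.8% of the genes past the mean TPM filter, all 9 primitive endoderm genes included). A blastn search with the longest transcript of each of the 9 genes found another gene with 95% identity over 200 bases for Sox17 and Cubn only, in both cases the overlapping gene on the opposite strand. Gene positions are from GENCODE M21 (GRCm38), and upstream sequences are from RefSeq (GRCm38.p6).

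The 9 genes and the lists were chosen with earlier results of these data known. Of each list up to 4 genes were named, those with the highest and lowest ratio and the most reads, plus Sox2, and also genes that overlap or adjoin the 9 genes. Gata1, Gata3, Gata5, Sox18, Foxa1, Foxa3, Afp and the markers of other cell types were named beyond this rule, after their values were seen. A gene that this rule would name is not reported here.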

Additional observations from a re-analysis of the deposited data

How the results depend on the processing

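No paired analysis was possible because each genotype has 1 library, and for the same reason no library could be left out. Of the 9 genes, 8 were lower under every scaling and pseudocount tried, and 9 with the GC and length trend removed, where Cubn changed to -0.32. Across all settings the log2 ratio ran from -2.12 to -1.73 for Gata4, from -2.02 to -1.55 for Gata6, from -2.24 to -1.28 for Sox17, from -1.83 to -1.07 for Sox7, from -2.36 to -1.54 for Pdgfra, from -1.34 to -0.92 for Amn, from -1.02 to -0.28 for Foxa2 and from -0.44 to -0.24 for Dab2. The median over all genes was 0.04 for TPM and -0.10 for reads scaled to the library total and for FPKM. The median of the 8 genes past the mean TPM filter was -1.71, and -1.17 with a pseudocount of 1, which compresses low values by construction. The count of genes more than 2-fold lower was 1 with a filter at a TPM of 10, 4 at 5, 6 at 1 and 6 with no filter. At 1 it was 5 with the trend removed and with a pseudocount of 1, both without Amn. None was more than 2-fold higher under any setting tried, and 1 (Cubn) had a counting interval wholly above no change. Of 7 lists, 6 had a median below 0, and this count was 5 with the trend removed and 4 with a mean TPM filter at 5. Some lists share genes, so their medians are not independent. The list of other endoderm factors and that of relatives both had the value of Foxa3 as median, whose interval (-0.65 to 0.19) included 0. The Pdgf list changed to 0.11 with the trend removed and to 0.97 with a mean TPM filter at 5, and was -1.08 at 10, each of which leaves fewer genes. The list of relatives (-0.21) changed to 0.31 with that filter at 5 and at 10. The band from 1 to under 20 TPM, the mean TPM filter at 10 and the unfiltered median of the 9 genes were added after seeing the data. Depth limits Foxa2 most, with 17 reads in the mutant.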
